A study of Mus musculus with 8 samples.

Results

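H3K4me3 was examined at 8 genes that set how much cholesterol and fatty acid a cell makes: Srebf1, Srebf2, Scap, Insig1, Insig2, Mlxipl, Nr1h2 and Nr1h3. Every H3K4me3 peak that the deposited annotation assigned to one of these genes was taken, which gave 18 of 35486 listed peaks and 8 of 20871 genes with a peak. The peaks were measured by CUT&Tag, in which an enzyme directed to an antibody-bound mark releases the DNA beside it, in EpCAM+ tumor cells sorted from mouse lung tumors. The KL group (2 libraries, replicates 1 and 2) carried a Cre-activated oncogene and Lkb1fl/fl, so that Cre also removed the tumor suppressor Lkb1. The KLG4m/m group (2 libraries, replicates 3 and 4) carried the same alleles and the Gpx4m/m allele, from which the ferroptosis-protecting enzyme Gpx4 is removed by a tamoxifen-inducible Dre recombinase that Cre has to unlock. Mice of both groups were 8 to 10 weeks old when they received Ad-Cre through the nose, both groups received tamoxifen, and lungs were taken 10 weeks after Ad-Cre. The adenovirus is not restricted to a lung cell type. The study's protocol gives fewer mice in total than the 4 labelled libraries, while its figure legend gives 2 mice per group. Whether each library is a separate mouse is thus not settled, and the p-values below may not measure the spread between mice.

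SREBP-1 and SREBP-2, encoded by Srebf1 and Srebf2, are transcription factors made as membrane proteins of the endoplasmic reticulum. Scap escorts them to the Golgi, where they are cut and set free, and Insig1 and Insig2 hold Scap back when sterols are plentiful. SREBP-2 mainly drives cholesterol synthesis and uptake, and SREBP-1 mainly drives fatty acid and triacylglycerol synthesis. The liver X receptors LXRα (Nr1h3) and LXRβ (Nr1h2) sense oxysterols and raise cholesterol export, and LXR also acts on the SREBP-1c promoter of Srebf1. ChREBP, encoded by Mlxipl, answers to sugar and drives lipogenic genes. In lung, alveolar type 2 cells use this machinery to make surfactant lipid. H3K4me3 marks promoters in use or poised for use, so peaks at separate start sites of a gene can be followed apart.

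Srebf1 is transcribed from alternative starts, which give SREBP-1a and SREBP-1c, and 3 of its 4 peaks lay at RefSeq starts. They are called here the upstream, the middle and the inner start, in the direction of transcription. RefSeq promoter sequences were at hand for 8 of the 8 genes (15 sequences, build GRCm38.p6), while the deposited peak positions follow another build, so that no position was carried from one to the other. The 3 Srebf1 starts were paired with the peaks because their spacing was the same in both, 1954 bp from upstream to middle and 10156 bp from middle to inner. The 250 bases before each start are shown because the peaks at these starts did not move together. Capitals mark motifs searched on both strands: CCAAT (the NF-Y box), GGGCGG (the GC box bound by Sp1), CACGTG (an E-box), TCACCC (the core of a sterol response element), and GGTTA followed after 5 bases by GGTCA (a form of the LXR repeat). The motifs were chosen after the sequences had been seen, and the last was written to the form known from Srebf1.
Srebf1 upstream start (minus strand, chr11:60222582-60222831): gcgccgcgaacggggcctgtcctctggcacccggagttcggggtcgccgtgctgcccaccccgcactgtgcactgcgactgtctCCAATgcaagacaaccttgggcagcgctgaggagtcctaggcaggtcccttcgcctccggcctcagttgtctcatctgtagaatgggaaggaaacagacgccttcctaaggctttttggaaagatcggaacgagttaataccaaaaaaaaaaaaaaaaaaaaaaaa
Srebf1 middle start (minus strand, chr11:60220628-60220877): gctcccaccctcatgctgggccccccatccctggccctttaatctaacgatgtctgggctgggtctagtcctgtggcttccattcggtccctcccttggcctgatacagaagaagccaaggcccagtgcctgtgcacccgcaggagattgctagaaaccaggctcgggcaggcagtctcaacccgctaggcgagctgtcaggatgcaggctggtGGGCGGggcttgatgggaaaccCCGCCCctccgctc
Srebf1 inner start (minus strand, chr11:60210472-60210721): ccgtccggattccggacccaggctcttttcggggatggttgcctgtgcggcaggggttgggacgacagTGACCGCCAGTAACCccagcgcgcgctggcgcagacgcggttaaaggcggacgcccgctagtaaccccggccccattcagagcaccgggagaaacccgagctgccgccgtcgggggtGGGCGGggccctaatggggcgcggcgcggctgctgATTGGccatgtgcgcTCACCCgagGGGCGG
The middle start held 2 GC boxes, 36 and 14 bases before the start, and none of the other searched motifs. The inner start held the LXR-type repeat 182 bases before the start, a CCAAT box 30 bases before it and TCACCC 15 bases before it, besides 2 GC boxes. The upstream start held 1 CCAAT box. Among the 32851 RefSeq promoter sequences of the same length, 32.7% held a GC box, 33.9% a CCAAT box, 13.8% TCACCC, 6.02% the E-box and 0.0457% the LXR-type repeat. These matches are letters in a window, not measured binding.
For comparison, the SREBP targets among the regulators themselves are shown, since Insig1 and Srebf2 moved in opposite directions when the reads of each gene were summed.
Srebf2 (plus strand, chr15:82147019-82147268): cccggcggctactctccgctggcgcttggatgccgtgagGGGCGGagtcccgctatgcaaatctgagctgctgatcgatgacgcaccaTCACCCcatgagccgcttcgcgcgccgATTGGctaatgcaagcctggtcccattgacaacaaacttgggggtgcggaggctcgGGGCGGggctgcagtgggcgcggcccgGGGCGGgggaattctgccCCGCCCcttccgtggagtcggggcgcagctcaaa
Insig1 (plus strand, chr5:28071162-28071411): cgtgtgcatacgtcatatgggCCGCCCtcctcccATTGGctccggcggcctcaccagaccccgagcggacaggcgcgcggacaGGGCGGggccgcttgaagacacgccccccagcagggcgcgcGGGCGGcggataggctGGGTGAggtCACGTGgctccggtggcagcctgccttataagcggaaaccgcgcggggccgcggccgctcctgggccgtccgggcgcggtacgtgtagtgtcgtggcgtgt
The Srebf2 window held TCACCC 162 bases before the start and a CCAAT box 135 bases before it, with 4 GC boxes. The Insig1 window held TCACCC 110 bases and the E-box 101 bases before the start, with 1 CCAAT box and 3 GC boxes. TCACCC also lay before starts of Insig2 (44 and 84 bases) and Nr1h3 (43 and 174 bases), whose summed reads did not pass the test below.

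The libraries held 3244495 to 3463731 reads in the listed peaks. Read counts of libraries of the same group differed by a chi-square of 1.13 (KL) and 1.23 (KLG4m/m) per degree of freedom, against 2.37 to 2.80 between groups. Counting error alone gives a value of about 1, so libraries of a group differed by little more than counting error. The p-values below rest on this small spread, and the spread between mice was not tested. The peak at the Gpx4 start held 242 and 236 reads in KL and 304 and 301 in KLG4m/m, and as it lies at the start of the gene it does not check the deletion. Markers of cell types are counted here beside the 5.38% of all 20871 genes that were higher in KLG4m/m and the 9.63% that were lower by the same test on summed reads. Of 8 epithelial markers 2 fell in KLG4m/m, Epcam (log2 fold change -0.82, SE 0.134) and Cdh1 (-0.38, SE 0.0995), and the list summed to 376 to 384 CPM in KL and 334 to 337 CPM in KLG4m/m. Of 7 alveolar type 2 markers with a peak, 4 fell (Sftpb, Sftpa1, Sftpd and Lamp3), and the sum went from 267 to 276 CPM in KL to 203 to 214 CPM in KLG4m/m. Of 10 macrophage markers with a peak, 2 rose (Adgre1 and Itgam) and 1 fell (Lyz2), with sums of 348 to 357 CPM in KL and 389 to 390 CPM in KLG4m/m. Of 10 lymphocyte markers with a peak, 2 rose (Ms4a1 among them), with sums of 220 to 235 CPM and 266 to 274 CPM. Of 8 endothelial markers 1 fell (Tek), a share near that of all genes, with sums of 227 to 267 CPM and 217 to 236 CPM, and of 4 fibroblast markers with a peak 1 rose (Pdgfrb), with sums of 97.2 to 103 CPM and 99.97 to 101 CPM. No peak was listed for the defining genes Sftpc, Marco and Cd79a, whereas Ptprc, the gene of the CD45 antigen sorted against, held 54.5 and 59.6 CPM in KL and 70.0 and 62.9 CPM in KLG4m/m. The part of cell composition in the values below was not tested, and in these bulk samples a change in the share of a cell type and a change of the mark per cell cannot be told apart.

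At Srebf1, H3K4me3 was higher in the KLG4m/m libraries at the middle start, and no other Srebf1 peak passed the test. The peak at the middle start (chromosome 11, 60111143 to 60111543 in the deposited build, transcript NM_001313979.1) held 112 and 105 reads in KL and 240 and 240 reads in KLG4m/m. Both KLG4m/m libraries lay above both KL libraries, as they did at 27.5% of all listed peaks, while at 26.6% both lay below. In CPM (reads scaled to the library's reads in peaks, with TMM factors) the level went from 31.2 ± 1.40 (SD, n = 2) to 72.0 ± 3.33 (SD, n = 2), a log2 fold change of 1.20 (SE 0.119, adjusted p = 3.91e-07 by edgeR's quasi-likelihood test with Benjamini-Hochberg adjustment over all peaks). Its p-value ranked 12 among the 35486 peaks. Leaving out KLG4m/m replicate 3 or 4 kept the fold change, at 1.25 and 1.16, but then no peak of the whole table passed the threshold (adjusted p = 0.307 and 0.337 here by edgeR), so the call could not be checked in this way.

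The peak at the upstream start (60113553 to 60113953, 146 bp before the start of NM_001358315.1) held 249 and 270 reads in KL and 238 and 262 in KLG4m/m. The groups overlapped, and the log2 fold change was 0.0041 (SE 0.102, adjusted p = 0.988 by edgeR), with a sign that changed under other scalings. The peak at the inner start (60101098 to 60101498, NM_001358314.1), before which the LXR-type repeat lies, held 166 and 204 reads in KL and 178 and 161 in KLG4m/m. These also overlapped, with a log2 fold change of -0.07 (SE 0.120, adjusted p = 0.771 by edgeR). Another, low peak 7.20 kb upstream of the upstream start (60120605 to 60121005), which the annotation classes as 3′ UTR without naming the gene, held 36 and 44 reads in KL and 35 and 29 in KLG4m/m (log2 fold change -0.26, SE 0.242, adjusted p = 0.535 by edgeR).

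The start sites of Srebf1 were then set against each other, which cancels any scaling of whole libraries. In KL the middle start held 0.450 and 0.389 times the reads of the upstream start, and in KLG4m/m 1.01 and 0.916 times. The middle start thus went from the lowest of the 3 start-site peaks in both KL libraries to about the level of the upstream start in both KLG4m/m libraries. Of all Srebf1 reads, the middle start took 19.9% (95% Wilson interval 16.8 to 23.4) and 16.9% (14.1 to 19.995) in the KL libraries and 34.7% (31.3 to 38.4) and 34.7% (31.2 to 38.3) in the KLG4m/m libraries. These intervals cover counting error only. The ratio of the inner to the upstream start was 0.667 and 0.756 in KL and 0.748 and 0.615 in KLG4m/m, which overlap. The change at the middle start relative to the summed Srebf1 reads was 0.92 on the log2 scale (SE 0.127, adjusted p = 2.64e-07 by edgeR's diffSpliceDGE), and it was 0.80 to 1.04 when each library was left out in turn, past the threshold each time. Of the 35486 peaks, 22232 lay in genes with more than 1 peak, and 1.29% of these passed this test in either direction; among the regulator genes it was 1 of 15 such peaks. The F test over all Srebf1 peaks gave 24.3 (adjusted p = 6.41e-09 by edgeR), beside 9.32% of 7617 genes with several peaks that passed it; of the 5 regulator genes with several peaks, Srebf1 and Insig2 did. Against the other peaks of the gene (limma's diffSplice on voom values) the upstream start came out lower by 0.44 (log2, adjusted p = 0.0407), a call that the comparison with the gene sum did not make (adjusted p = 0.187). Those other peaks take in the middle start, and the log2 fold change of the upstream start itself was 0.0041.

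**Figure D1:**
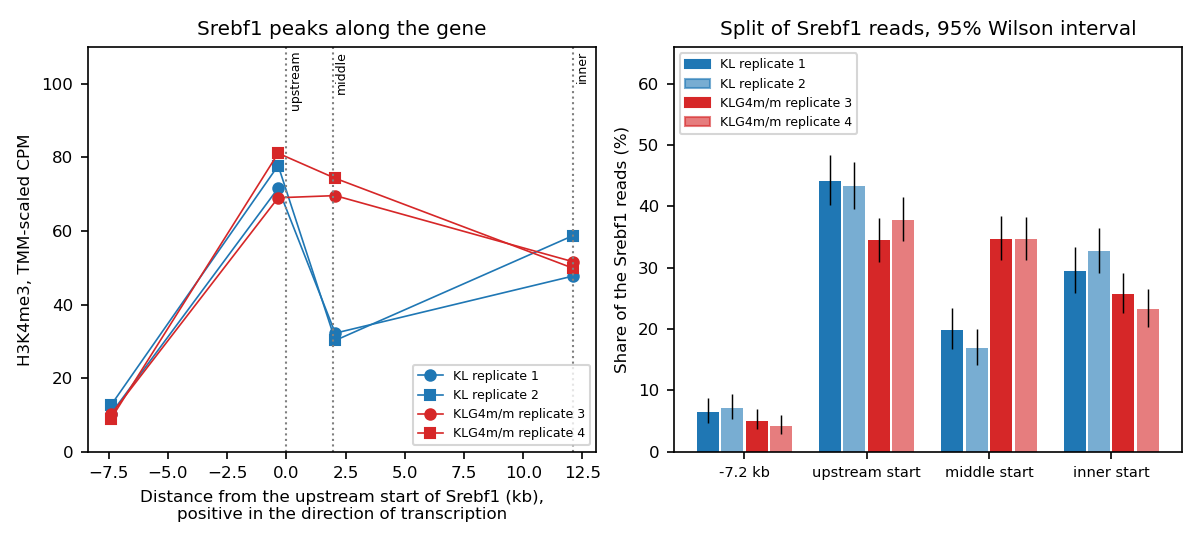
Left, TMM-scaled CPM of the 4 Srebf1 peaks in each library against the distance of the peak centre from the upstream start (kb, dotted lines at the 3 starts). Right, each peak's share of the Srebf1 reads of its library (%) with 95% Wilson intervals. The middle start holds 16.9% and 19.9% in KL and 34.7% in both KLG4m/m libraries.

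Summed over its 4 peaks, Srebf1 went from 171 ± 12.0 CPM to 207 ± 8.93 CPM (SD, n = 2 each) between KL and KLG4m/m, a log2 fold change of 0.28 (SE 0.0663, adjusted p = 0.00130 by edgeR over 20871 genes). The gene sum thus showed a much smaller difference than the middle start on its own. This call was lost with DESeq2 (adjusted p = 0.108) and without KL replicate 1 (0.21, adjusted p = 0.0821 by edgeR). The 3 peaks of other genes whose levels over the 4 libraries were nearest to the middle start, by the root mean square difference of log2 CPM, were at the starts of Runx3 (0.201), Ripor2 (0.277) and Ndst1 (0.280). Runx3 encodes a Runt-family transcription factor known from T cells, and its peak held 141 and 122 reads in KL and 226 and 227 in KLG4m/m. This likeness over 4 libraries is a description and was not tested.

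Srebf2, the SREBP of cholesterol synthesis, was higher in KLG4m/m over the gene, with no single peak past the threshold. The promoter peak (chromosome 15, 82031155 to 82031555) held 293 and 289 reads in KL and 323 and 359 in KLG4m/m. The KLG4m/m libraries lay above the KL libraries, with a log2 fold change of 0.29 (SE 0.0943, adjusted p = 0.0566 by edgeR), which was 0.16 without KLG4m/m replicate 4 and 0.40 without replicate 3. The other 3 Srebf2 peaks were lower than the promoter peak and overlapped between the groups. The peak 8.28 kb upstream, in the last intron of the neighbour Ccdc134, held 19 and 12 reads in KL and 17 and 18 in KLG4m/m. Within intron 1 of Srebf2, the peak at 13.2 kb held 31 and 45 reads in KL and 39 and 33 in KLG4m/m. The second intron 1 peak, at 18.02 kb, held 55 and 73 reads in KL and 76 and 60 in KLG4m/m. Summed over the 4 peaks, Srebf2 went from 118 ± 4.14 to 139 ± 9.005 CPM (SD, n = 2 each), a log2 fold change of 0.23 (SE 0.0785, adjusted p = 0.0286 by edgeR). Its peaks did not differ in change by the F test (0.511, adjusted p = 0.826 by edgeR), which does not show that they changed alike. The gene call was lost without KL replicate 1 or 2 (log2 fold changes 0.20 and 0.28) and with DESeq2 (adjusted p = 0.351). Without KLG4m/m replicate 3 or 4 the log2 fold changes were 0.30 and 0.17, and the call could not be checked in this way.

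Insig1 and Insig2 retain Scap in the endoplasmic reticulum, and the difference between the 2 genes was not tested. Insig1, itself a target of SREBP, had 1 peak, at its start (chromosome 5, 28276149 to 28276549). It held 308 and 320 reads in KL and 276 and 193 in KLG4m/m. Both KLG4m/m libraries lay below KL, but KLG4m/m replicate 4 lay far below replicate 3. The level went from 90.4 ± 2.52 to 69.9 ± 14.3 CPM (SD, n = 2 each), a log2 fold change of -0.37 (SE 0.108, adjusted p = 0.0338 by edgeR). The fold change was -0.17 without KLG4m/m replicate 4 and -0.60 without replicate 3, where the call could not be checked. The call was lost without KL replicate 2 (-0.34) and with DESeq2 (adjusted p = 0.402), as was the gene call (adjusted p = 0.250 with DESeq2). The peaks nearest to Insig1 over the 4 libraries were an intergenic peak assigned to Elovl5 (0.0306), which encodes a fatty acid elongase, and the start-site peaks of Fzd5 (0.0656) and Xpa (0.0664).

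The Insig2 start (chromosome 1, 121255574 to 121255974) was the highest of the 18 peaks in its mean level, and it held 358 and 386 reads in KL and 381 and 355 in KLG4m/m. The groups overlapped, and the log2 fold change was 0.04 (SE 0.0839, adjusted p = 0.804 by edgeR). An intergenic peak 11.4 kb upstream (121271750 to 121272150) was among the lowest, at 20 and 24 reads in KL against 8 and 9 in KLG4m/m. The groups did not overlap there, and the peak fell by 1.30 on the log2 scale (SE 0.391, adjusted p = 0.0367 by edgeR). The call was lost without KL replicate 1 or 2 (-1.43 and -1.16), and DESeq2 gave no adjusted p for so low a peak. Without KLG4m/m replicate 3 or 4 the change was -1.18 and -1.43, and the call could not be checked in this way. The change at the distal peak relative to the summed Insig2 reads was -1.29 (SE 0.400, adjusted p = 0.0823 by edgeR), while the F test over both peaks passed (10.8, adjusted p = 0.0220 by edgeR). The Insig2 sum did not pass (log2 fold change -0.01, SE 0.0827, adjusted p = 0.950 by edgeR).

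Scap, the escort of the SREBPs, had a peak at its start (chromosome 9, 110162671 to 110163071) at 166 and 207 reads in KL against 181 and 155 in KLG4m/m. The groups overlapped (log2 fold change -0.09, SE 0.123, adjusted p = 0.682 by edgeR). A peak 3.28 kb upstream (110158677 to 110159077) held 63 and 39 reads in KL and 74 and 70 in KLG4m/m, with a log2 fold change of 0.55 (SE 0.204, adjusted p = 0.0896 by edgeR). Both KLG4m/m libraries were higher there, and the KL libraries stood far apart: without KL replicate 1 the change was 0.94 and passed (adjusted p = 0.0117 by edgeR), and without KL replicate 2 it was 0.25 (adjusted p = 0.620 by edgeR). The Scap peaks did not pass the F test (7.38, adjusted p = 0.0676 by edgeR), and the sum gave 0.07 (SE 0.103, adjusted p = 0.705 by edgeR).

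The LXR genes had 1 peak each and neither passed the test. Nr1h2, the broadly expressed LXRβ, held 149 and 147 reads in KL and 164 and 151 in KLG4m/m (chromosome 7, 44202791 to 44203191; log2 fold change 0.15, SE 0.121, adjusted p = 0.486 by edgeR). Nr1h3, the LXRα of liver and macrophages, held 111 and 119 reads in KL and 97 and 90 in KLG4m/m (chromosome 2, 91024971 to 91025371; -0.24, SE 0.146, adjusted p = 0.317 by edgeR). The groups did not overlap in either gene, which was so at more than 1 in 2 of all listed peaks by the shares given for the Srebf1 middle start, and nothing is read from it. The start of Acp2, a lysosomal phosphatase gene, had its own peak 7.51 kb from that of Nr1h3, at 331 and 334 reads in KL against 337 and 358 in KLG4m/m.

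Mlxipl (ChREBP) had no peak past the threshold. The start-site peak (chromosome 5, 135135715 to 135136115) held 93 and 75 reads in KL and 73 and 81 in KLG4m/m, with a log2 fold change of -0.07 (SE 0.171, adjusted p = 0.849 by edgeR). It was the lowest of the start-site peaks of the 8 genes in KLG4m/m and in KL, at 23.1 ± 2.76 and 24.2 ± 3.64 CPM (SD, n = 2 each). In intron 2 a peak held 19 and 20 reads in KL and 16 and 19 in KLG4m/m, and in intron 7 a peak held 15 and 18 reads in KL and 8 and 13 in KLG4m/m (-0.59, SE 0.412, adjusted p = 0.399 by edgeR). The groups overlapped at the start and in intron 2 and did not overlap in intron 7. A peak in exon 14 of Mlxipl, assigned in the table to the neighbour Tbl2, held 82 and 82 reads in KL and 94 and 80 in KLG4m/m. ChREBP has a shorter form made from an alternative start, and RefSeq lists a Mlxipl start 17001 bp upstream of the other in GRCm38.p6. In the deposited table no peak was listed in the 28.5 kb upstream of the Mlxipl start-site peak, up to the start-site peak of Vps37d, and a region without a listed peak may still hold some mark. That Vps37d peak held 84 and 123 reads in KL and 56 and 46 in KLG4m/m (-0.96, adjusted p = 0.00230 by edgeR).

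**Figure D2:**
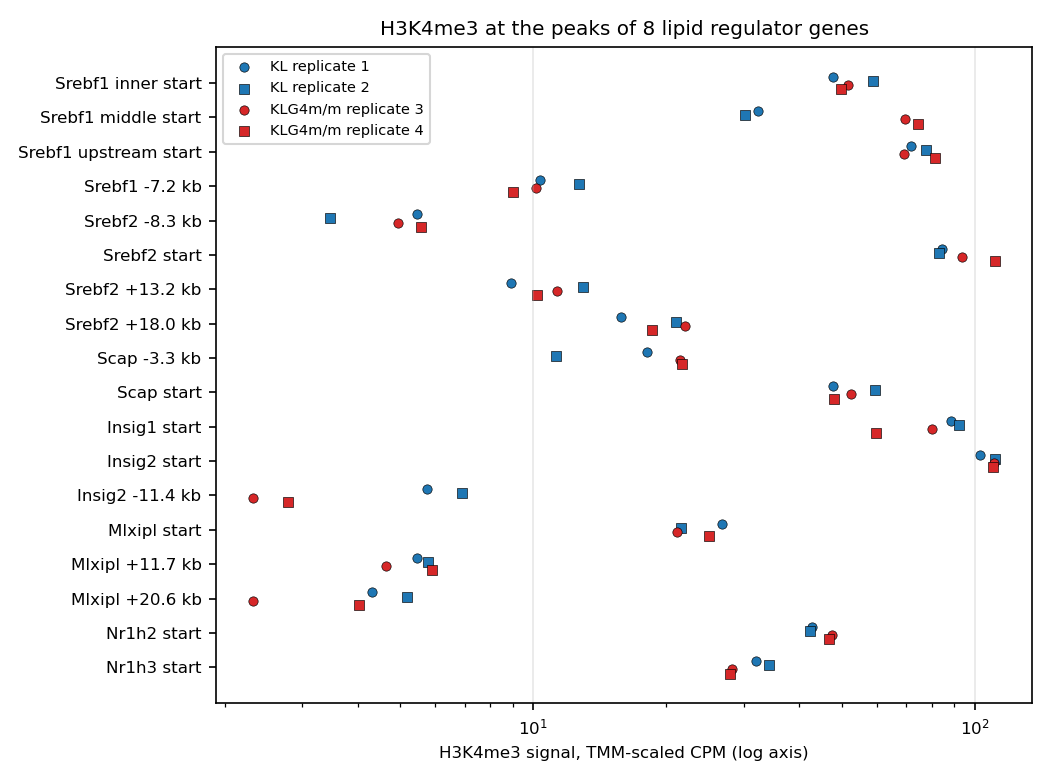
TMM-scaled CPM (log axis) of the 18 peaks in the 4 libraries; distances in kb are from the start of the gene's transcript. The middle start of Srebf1 holds 30.2 and 32.2 CPM in KL and 69.6 and 74.3 CPM in KLG4m/m, while the upstream and inner starts overlap between the groups.

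The groups did not overlap at 9 of the 18 peaks, with KLG4m/m above at 4 and below at 5, near the 27.5% and 26.6% of all peaks. Over the 18 peaks, 1 was higher in KLG4m/m (Srebf1 middle start), beside 3.1% of all 35486 peaks, and 2 were lower (Insig1 start and Insig2 distal), beside 5.52% of all peaks. The median log2 fold change was -0.04 over the 18 peaks and 0.0077 over all peaks. Over the 8 genes, 2 sums were higher (Srebf1 and Srebf2), beside 5.38% of 20871 genes, and 1 was lower (Insig1), beside 9.63% of genes, with medians of 0.03 over the 8 genes and 0.0023 over all genes. With DESeq2 the Srebf1 middle start was the only one of these calls left among peaks (adjusted p = 1.16e-06), and no gene sum of the 8 passed.

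**Figure D3:**
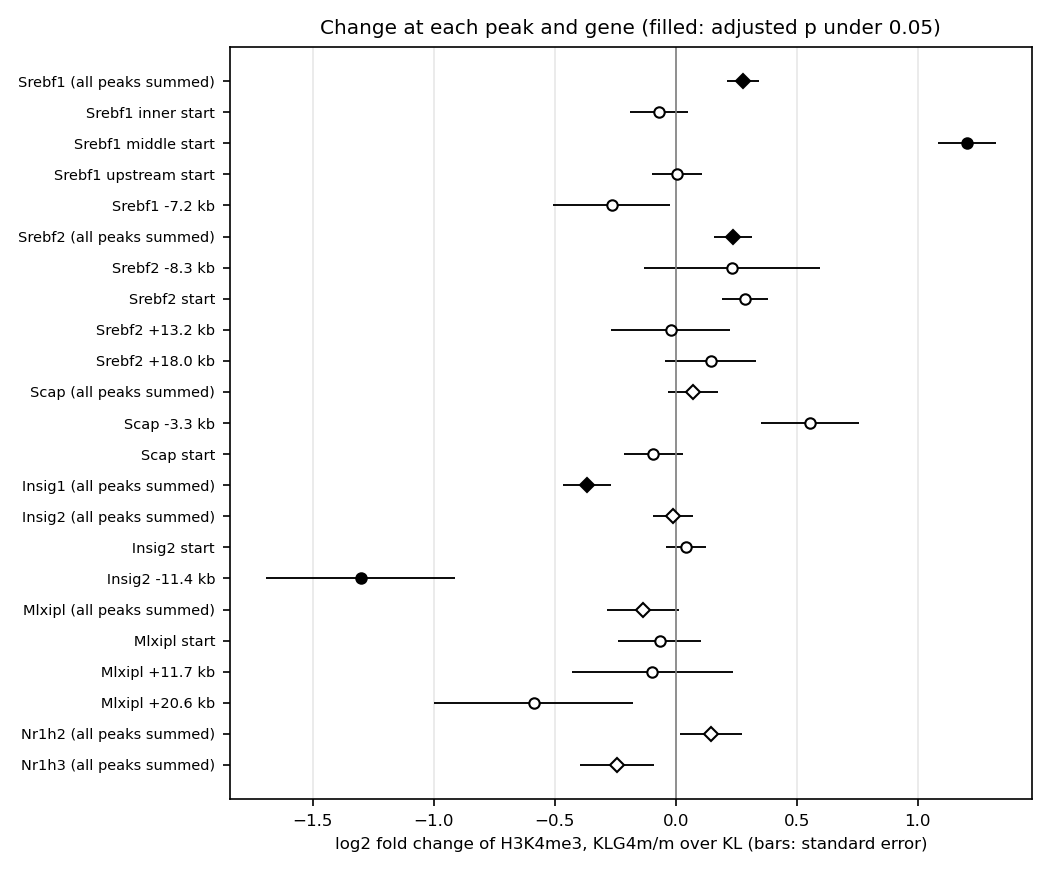
Log2 fold change of H3K4me3, KLG4m/m over KL, with its standard error, for each of the 18 peaks (circles, or the diamond where a gene has 1 peak) and for the summed reads of each gene (diamonds). Filled symbols passed an adjusted p of 0.05 by edgeR: the Srebf1 middle start at 1.20 and the Insig2 distal peak at -1.30 stand farthest from 0.

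The other genes of these pathways were taken from 6 lists and described by their summed reads. Of 70 listed symbols (G6pc and G6pc1 are the same gene) 58 had a peak. Of these 8 rose and 6 fell, beside the 5.38% and 9.63% of all genes, with a median of 0.03 (log2) over the 58.
Of 10 genes of SREBP processing and turnover with a peak, 1 rose and 3 fell, beside 5.38% and 9.63% of all genes. The other 6 did not pass. Paqr3, a Golgi protein that anchors Scap and SREBP, held 198 and 227 reads in KL and 150 and 104 in KLG4m/m, and fell by 0.69 (SE 0.127, adjusted p = 1.87e-05 by edgeR). Mbtps1, the site-1 protease that cuts the SREBPs, held 227 and 260 reads in KL and 202 and 147 in KLG4m/m, and fell by 0.43 (SE 0.113, adjusted p = 0.00409 by edgeR).
In Paqr3 and Mbtps1 every KLG4m/m library lay below every KL library, as in 28.7% of all genes. Mbtps1 gave -0.26 without KLG4m/m replicate 4 and -0.63 without replicate 3, and its call was lost without KL replicate 2 (-0.32, adjusted p = 0.178 by edgeR). Rnf145, a ubiquitin ligase of the endoplasmic reticulum, rose by 0.29 (SE 0.103, adjusted p = 0.0386 by edgeR). Of 6 LXR and ChREBP partners and corepressors with a peak, Mlx, the dimer partner of ChREBP, rose by 0.33 (SE 0.0936, adjusted p = 0.00850 by edgeR), and none fell, also at an unadjusted p of 0.05.

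Of 8 LXR targets with a peak 3 rose by edgeR, beside 5.38% of all genes. None fell, beside 9.63% of all genes, also at an unadjusted p of 0.05. The other 5 did not pass, among them the sterol exporter gene Abcg8 (-0.47, SE 0.394) and the lipid transfer protein gene Pltp (0.13, SE 0.103). Apoe, the lipoprotein component apolipoprotein E, held 42 and 32 reads in KL and 75 and 82 in KLG4m/m, a log2 fold change of 1.14 (SE 0.206, adjusted p = 1.44e-05 by edgeR). Abca1, the pump that loads cholesterol onto apolipoprotein A-I, held 145 and 128 reads in KL and 173 and 187 in KLG4m/m (0.45, SE 0.128, adjusted p = 0.00723 by edgeR). Abcg1, the partner pump that loads HDL, held 520 and 550 reads over 8 peaks in KL and 624 and 595 in KLG4m/m (0.24, SE 0.0691, adjusted p = 0.00807 by edgeR).
In each of the 3 genes both KLG4m/m libraries lay above both KL libraries, as in 27.9% of all genes. No single peak of Abcg1 passed, its start-site peak gave 0.15 (SE 0.103, adjusted p = 0.374 by edgeR), and the sum takes in intergenic peaks. Neither of the 2 Abca1 peaks passed on its own either, with 0.38 at the start (adjusted p = 0.0878 by edgeR). Apoe, Abca1 and Abcg1 are also active in macrophages. As given above, macrophage markers summed higher in KLG4m/m, but only 2 of 10 rose, Lyz2 fell and 7 did not pass. The part of macrophages in these values was not tested. The list's median log2 fold change was 0.13, beside 0.0023 over all genes.

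Of 14 SREBP-2-type cholesterol genes with a peak, 1 rose and 2 fell, near the 5.38% and 9.63% of all genes. Nothing is read from these counts. Hmgcs1, the HMG-CoA synthase, rose by 0.23 (SE 0.0852, adjusted p = 0.0460 by edgeR). Sqle, the squalene epoxidase, held 239 and 237 reads in KL and 199 and 173 in KLG4m/m and fell by 0.30 (SE 0.109, adjusted p = 0.0464 by edgeR). Sc5d, a late sterol desaturase, held 195 and 201 reads in KL and 185 and 108 in KLG4m/m and fell by 0.38 (SE 0.128, adjusted p = 0.0287 by edgeR), and gave -0.09 without KLG4m/m replicate 4 and -0.78 without replicate 3.
Of 14 SREBP-1-type fatty acid genes with a peak, 2 rose and 1 fell, beside 5.38% and 9.63% of all genes. Gpam, the acyltransferase that begins glycerolipid synthesis, held 40 and 36 reads in KL and 83 and 81 in KLG4m/m, a log2 fold change of 1.16 (SE 0.202, adjusted p = 5.73e-06 by edgeR). Its 2 peaks are classed as distal intergenic, 33.8 and 35.8 kb from the start named for them, so its value is not one of a promoter. Scd2, a stearoyl-CoA desaturase, rose by 0.34 (SE 0.112, adjusted p = 0.0246 by edgeR), and Acaca, the acetyl-CoA carboxylase, fell by 0.39 (SE 0.113, adjusted p = 0.00991 by edgeR).
Fasn, the fatty acid synthase, gave -0.08 (SE 0.0984) and did not pass. Of 6 ChREBP and MondoA targets with a peak none passed with edgeR or with DESeq2, and 2 had an unadjusted p under 0.05 by edgeR, Fgf21 (-1.01) and Txnip (0.17). Leaving out KL replicate 1 also ended the calls of Mlx (0.26) and Abcg1 (0.21), leaving out KL replicate 2 those of Acaca (-0.32) and Abca1 (0.38), and leaving out either those of Rnf145 (0.32 and 0.28), Hmgcs1 (0.22 and 0.26), Sqle (-0.29 and -0.30), Sc5d (-0.40 and -0.35) and Scd2 (0.33 and 0.37). With DESeq2 only Gpam and Apoe stayed past the threshold among the 8 genes that rose, and only Paqr3 among the 6 that fell.

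**Figure D4:**
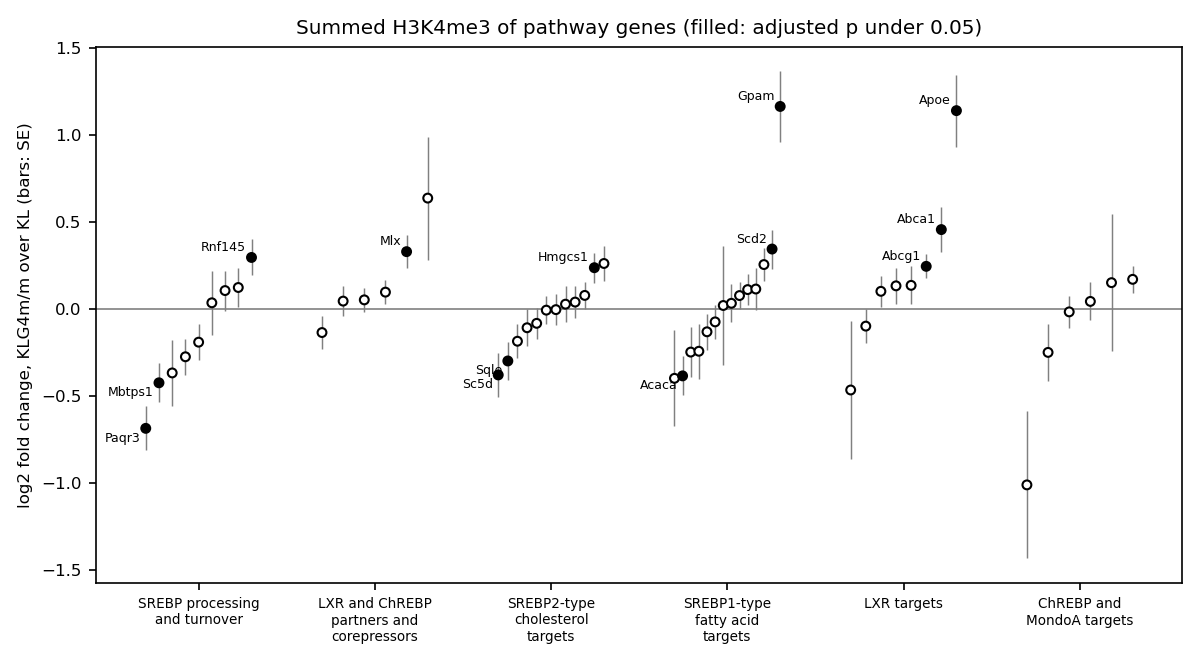
Log2 fold change of the summed H3K4me3 reads, KLG4m/m over KL, with standard errors, for genes with a peak in 6 pathway lists; 3 genes that are not reported here are left out. Filled symbols passed an adjusted p of 0.05 by edgeR; Gpam (1.16) and Apoe (1.14) lie highest, and Paqr3 (-0.69) is the lowest of those drawn that passed.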

How the data were processed

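H3K4me3 CUT&Tag libraries of sorted tumor cells from KL (replicates 1 and 2) and KLG4m/m (replicates 3 and 4) lungs were analysed. The study's protocol names the kit CUT&Tag and describes cleavage by a protein A/G-fused micrococcal nuclease. Per the submitters' processing notes, the authors used Trim Galore 0.6.10, BWA 0.7.15, Picard 2.17.3, MACS2 2.2.7.1 and HOMER 4.11.1, and the authors deposited whole read counts per library for one list of peaks, without normalization, with the nearest gene and start. Of the 35486 peaks 35485 span 400 bp, so that CPM of 2 peaks compare equal lengths. The table's CPM and its own comparison (fold changes, p-values) were not used. The methods name a mouse genome by its Ensembl release, while the deposited positions are not those of GRCm38, so the build is given here only as that of the table. Mitochondrial and low-quality alignments and duplicates had been removed. The H3K27ac libraries were not analysed here.

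Counts were fitted with edgeR 4.0.16 (TMM, quasi-likelihood test, no filter on low counts, Benjamini-Hochberg over all peaks, or over all genes after summing a gene's peaks; threshold 0.05, two-sided; common dispersion 0.00133) in R 4.3.3. Start sites of a gene were compared with diffSpliceDGE, which sets a peak against the summed reads of its gene, its own included; the plan had called this the other peaks, which limma's diffSplice (3.58.1) tests. DESeq2 1.42.0, limma, other scalings, a 10 CPM filter and leaving out each library were alternatives. The fits by edgeR, diffSpliceDGE, DESeq2 and limma were tested on simulated counts with planted changes, larger than most changes described here. The simulation gave every peak the common dispersion of these libraries and planted changes only at peaks above a minimum mean count. It thus cannot show how the calls hold with a spread between mice or at low peaks. The other scalings, the filter and the leaving out of libraries were not tested in this way. With 2 libraries a group an exact permutation test cannot go below p = 0.333. Values scaled to reads in peaks cannot show a change of the same factor at every peak.

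The genes and lists were chosen with earlier results of these data known. Named with values were all peaks of the 8 genes, list genes whose summed reads passed, list genes and markers named with their values after these had been seen (Fasn, Abcg8, Pltp, Fgf21, Txnip, Ptprc), neighbouring genes, and the 3 peaks nearest in pattern to each passing peak of at least 10 CPM. Some results that fall under these rules are not reported here.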

Additional observations from a re-analysis of the deposited data

How the results depend on the processing

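With 2 libraries a group and 8 to 386 reads at the peaks described, small differences could be missed. Small ones that passed by edgeR could also fail elsewhere. The summed Srebf2 reads (log2 fold change 0.23) lost their call with DESeq2 and without KL replicate 1 or 2. No paired analysis was possible because KL carries replicate numbers 1 and 2 and KLG4m/m 3 and 4. Leaving out a KLG4m/m library left no called peak or gene in the whole table (1099 and 1960 peaks and 1122 and 2010 genes higher and lower with all libraries), where the lone library is assumed to vary like the KL pair. Without KL replicate 1, 702 peaks were higher and 1459 lower, and without KL replicate 2, 484 and 998. DESeq2 called 33 peaks higher and 250 lower, and 122 genes higher and 337 lower. No scaling moved the median of all peaks by over 0.1 on the log2 scale.

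The Srebf1 middle start gave 1.16 to 1.25 when each library was left out. The count of regulator peaks that were higher was 0 to 2, and of lower peaks 0 to 1, against 1 and 2. Lower peaks numbered 0 with DESeq2 and 1 with a 10 CPM filter, which leaves out the distal Insig2 peak. The count of higher regulator genes was 0 to 1 and of lower ones 0 to 1 when each library was left out, and both were 0 with DESeq2. Relative to the other peaks of the gene (limma) 1 peak was lower, the Srebf1 upstream start, where the other peaks take in the middle start that rose. Pathway list genes that were higher numbered 0 to 4 and lower ones 0 to 4 when each library was left out, and 2 and 1 with DESeq2, counts added after the data were seen.

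None of the results whose sign changed had passed the threshold. When each library was left out, log2 fold changes ran from -0.211 to 0.0879 at the Srebf1 inner start, -0.112 to 0.115 at its upstream start, -0.0599 to 0.596, -0.265 to 0.273 and -0.0467 to 0.363 at the Srebf2 peaks at 8.28 kb upstream and in intron 1, -0.245 to 0.0748 at the Scap start, -0.0127 to 0.0978 at the Insig2 start, and -0.213 to 0.0948 and -0.270 to 0.0637 at the Mlxipl start and intron 2. For summed reads they ran from -0.0632 to 0.0572 at Insig2 and -0.294 to 0.0116 at Mlxipl. With peaks within 1 kb of a start alone, Scap gave -0.0847 and Insig2 0.0507. The Srebf1 upstream start gave -0.0049 scaled by total reads, -0.0159 with the 10 CPM filter and -0.0053 with limma. Relative to the gene sum, the ranges were -0.337 to 0.395, -0.0051 to 0.101 and -0.295 to 0.0920 for the Srebf2 upstream, start and 18.02 kb peaks, and -0.0015 to 0.140 and -0.0897 to 0.152 for the Mlxipl start and intron 2, and limma gave 0.0273 for the Srebf2 upstream peak. The cause was not tested.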
